A study of Mus musculus with 6 samples.

Results

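The genes described here are the factors that shorten, decap and degrade mRNA in the mouse, together with the nonsense-mediated decay machinery. They were chosen by symbol, as the Cnot, Pan2, Pan3, Tob, Zfp36l1, Zfp36l2, Dcp, Edc3, Edc4, Xrn, Exosc, Upf, Smg, Ago and Tnrc6 genes. This gave 51 of the 52249 genes in the deposited table. Zfp36 itself was left out of all counts as a numbered Zfp gene, and its values are given once below.

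Expression was measured by sequencing the 3′ ends of polyadenylated RNA in 6 mouse intestinal organoid libraries; organoids are cultures of gut epithelium. All 6 libraries were labelled as Apc knockout, and no library was labelled as having an intact Apc. Of them, 3 were Apc-knockout alone (called control) and 3 were labelled Apc-knockout with IGF2BP3 overexpression (called OE). The labels give no time, age, sex or strain. The overexpression construct, its promoter, and whether each group came from several cultures or from 1 line are not given in the sources used here, so p-values measure only the spread between these libraries.

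Most cytoplasmic mRNAs are degraded after their poly(A) tail has been shortened, first by PAN2-PAN3 and then by the CCR4-NOT complex. RNA-binding adaptors such as the TOB and ZFP36-family proteins, and the microRNA effectors AGO and TNRC6, bring CCR4-NOT to particular transcripts. The deadenylated mRNA is then decapped by DCP2 and digested from its 5′ end by XRN1, or digested from its 3′ end by the RNA exosome. Nonsense-mediated decay (NMD), in which the kinase SMG1 phosphorylates the helicase UPF1, removes transcripts with premature stop codons and also some normal ones. IGF2BP3 is an RNA-binding protein known for prolonging the life of bound transcripts.

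The ZFP36-family proteins bind AU-rich stretches in 3′ untranslated regions (UTRs) around the heptamer TATTTAT, written here as DNA. The 2 Zfp36l transcripts among the members, both lower in the OE libraries, carry this heptamer themselves, and so their sites are shown. Each line gives 30 bases of the 3′ UTR in GENCODE M21 (GRCm38), 5′ to 3′ along the transcript on the minus strand, with the heptamer in capitals.
Zfp36l1, chr12:80108421-80108450: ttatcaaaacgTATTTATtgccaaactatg
Zfp36l1, chr12:80108380-80108409: aattttgttcaTATTTATcgggatgacaaa
Zfp36l1, chr12:80108166-80108195: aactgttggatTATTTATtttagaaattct
Zfp36l2, chr17:84184913-84184942: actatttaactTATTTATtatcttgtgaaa
Zfp36l2, chr17:84184865-84184894: tgtccatactgTATTTATcgagtatgatga
Zfp36l2, chr17:84184679-84184708: attgtatgtaaTATTTATttcattaatttc
These 6 were all the matches on the transcribed strand in the 3′ UTRs of Zfp36l1 (1835 bases) and Zfp36l2 (1822 bases). Over the members, 18 of the 50 with an annotated 3′ UTR held at least 1 match. In the last 1000 bases of the 3′ UTR, where the UTR was at least that long, 5 of 28 members (17.9%) held a match, beside 1356 of 5668 genes tested (23.9%). A match describes these letters and was not tested as a binding site.

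Total counts ran from 2180116 to 2228078 in the control libraries and from 2310236 to 2519917 in the OE ones, without overlap. At this depth 3 counts correspond to 1.18 to 1.41 CPM (a count relative to the library size as scaled by edgeR's TMM factors), a floor that covers counting error only. The library names put the control libraries in one series and the OE libraries in another, so series and group cannot be told apart. The control libraries differed from each other little beyond counting noise (chi-square over degrees of freedom 1.197 to 1.352 across pairs), and the OE libraries differed more (4.38 to 8.32). The label of the OE group could not be checked: the mouse Igf2bp3 gene had 1, 0 and 0 counts in control and 1, 0 and 0 in OE libraries, and a 3′ tag on the mouse gene would not register an introduced cDNA without that 3′ end. Apc gave 182, 174 and 164 counts in control and 158, 151 and 148 in OE libraries. As CPM this was 80.4 ± 4.3 and 62.0 ± 2.37 (SD, n = 3), a log2 fold change of -0.37 (edgeR adjusted p = 0.0323). A 3′ tag that lies outside the deleted part would not check a knockout.

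Of the 51 members, 49 had enough counts to be tested with edgeR's quasi-likelihood test (OE against control, Benjamini-Hochberg adjustment over all 10687 genes tested, threshold 0.05). Of these, 10 passed the threshold, 20.4% of the members tested, where 29.2% of all genes tested passed. Exosc4 and Upf1 were higher in the OE libraries, which is 4.08% of the members beside 16.5% of all genes. Tob1, Zfp36l2, Smg1, Ago3, Xrn1, Cnot3, Zfp36l1 and Cnot1 were lower, which is 16.3% beside 12.7%. The count fell to 6 without control replicate 1, to 7 without either of the other control libraries, and reached 11 without OE replicate 3. Over all genes tested, the share called was 17.3%, 16.8% and 15.9% without control replicate 1, 2 or 3, and 32.6% without OE replicate 3. With library totals in place of TMM factors 4 members were higher and 8 lower, with DESeq2's size factors 1 and 8, and with an offset for GC content (a smooth correction fitted in each library) 4 and 5. In the same settings, 29.8%, 28.8% and 23% of all genes tested were called. In the main fit, 75% of the CCR4-NOT recruiters, 18.2% of the CCR4-NOT subunits and 16.7% of the microRNA effectors tested were lower. So were 14.3% of the decapping and 5′ decay genes, 10% of the NMD genes and 0% of the other roles. The exosome had 11.1% higher, NMD 10% and the other roles 0%. These stand beside the same 12.7% and 16.5% of all genes, in roles of 2 to 11 genes tested.

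**Figure D1:**
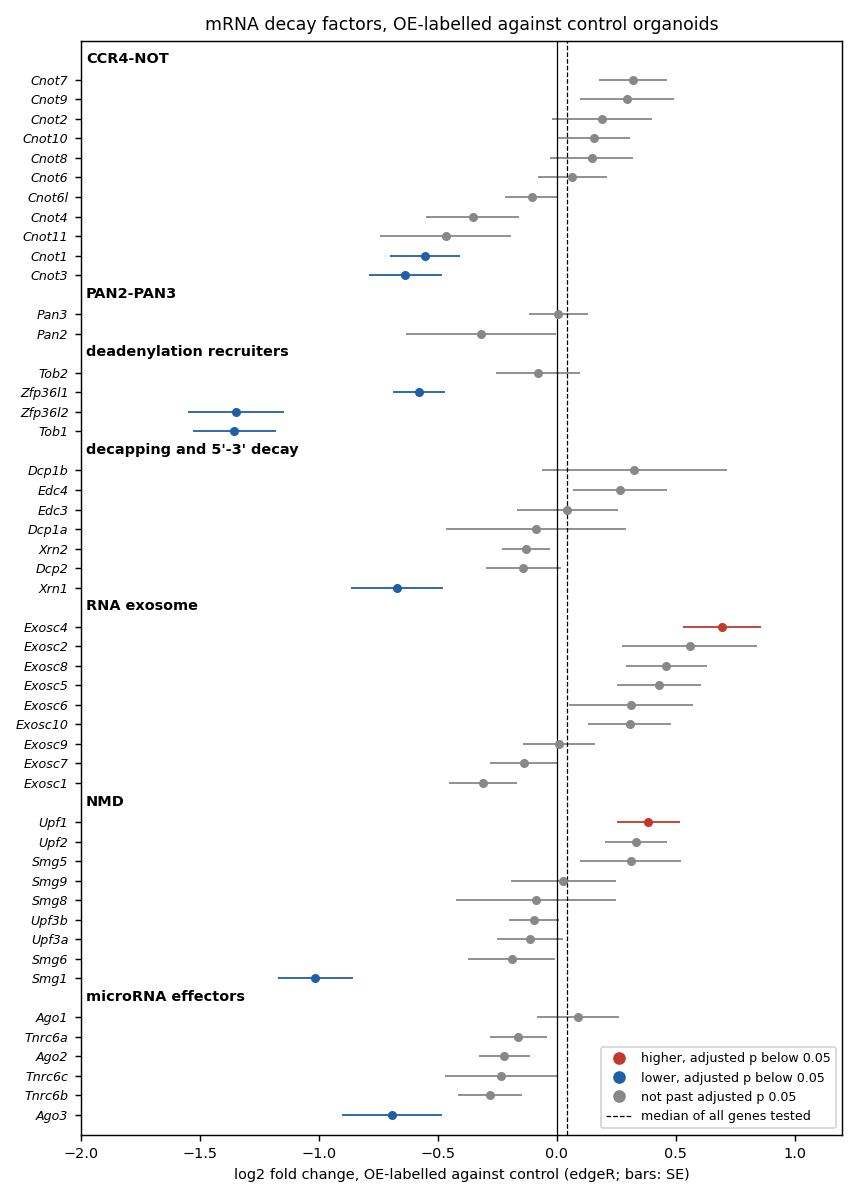
Log2 fold change of the members tested and reported by name (x axis, OE against control; bars, SE of the edgeR fit), grouped by role; colours mark members with adjusted p below 0.05, and the dashed line is the median of all genes tested (0.04). Tob1 (-1.36) and Zfp36l2 (-1.35) lie farthest to the left and Exosc4 (0.69) farthest to the right.

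The median log2 fold change of the members was -0.09, beside 0.04 for all genes tested. Its sign depended on the processing, since it was 0.02 with the GC offset and 0.06 with an offset for transcript length. Of the 49 members, 23 lay above 0 and 26 below. The ranges of the groups' CPM did not overlap for 20 members (40.8%), beside 45.7% of all genes. Summed over the 51 members, the control libraries held 3170, 3179 and 3176 CPM and the OE libraries 2744, 2846 and 2846 CPM, so every OE library was below every control. The roles did not share this evenly. The mean sum went from 586.8 to 375.4 CPM for the CCR4-NOT recruiters, 596.3 to 514.6 for the microRNA effectors and 597.4 to 552 for the CCR4-NOT subunits. It went from 366.3 to 324.1 for decapping and 5′ decay, 82.7 to 77.9 for PAN2-PAN3, 674.8 to 668 for NMD and 270.6 to 300.2 for the exosome. In bulk organoid RNA, fewer cells of a type and less RNA per cell cannot be told apart. The members varied more among the OE libraries, with a median coefficient of variation of 14.3% against 8.09% in control, and the same held over all genes (15.9% against 10.5%).

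**Figure D2:**
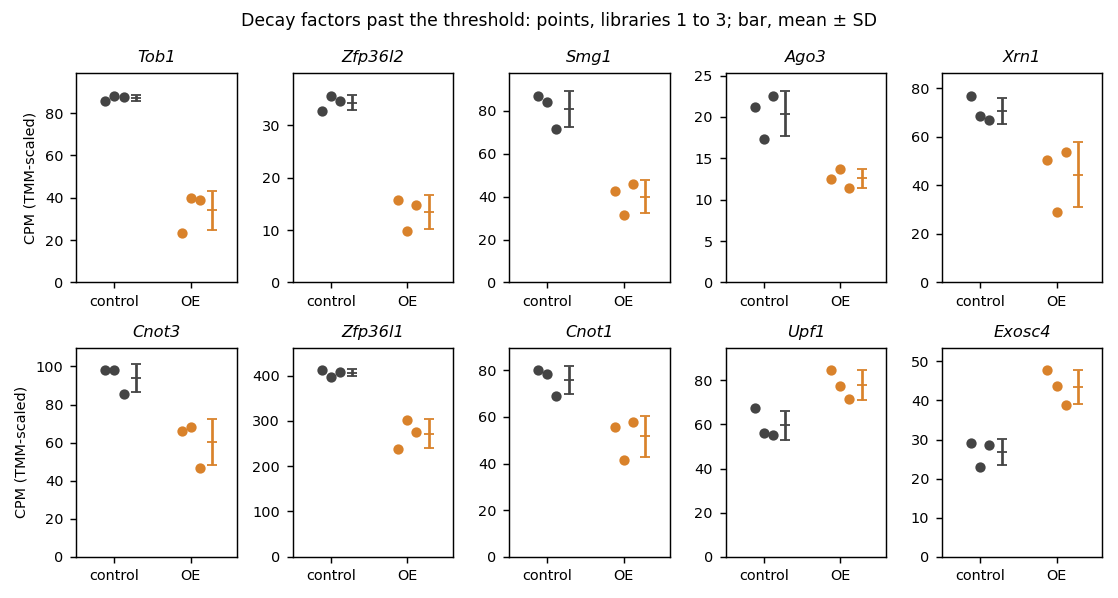
CPM (y axis, TMM-scaled, from 0) of the 10 members past the threshold in each library; points are libraries 1 to 3 from left to right and bars are the mean ± SD (n = 3). No control point overlaps the range of the OE points in any panel, and Tob1 falls from 87.2 to 34.04 CPM. The panels were chosen by adjusted p in these same libraries, so the separation adds no support. It is also seen for 45.7% of all genes tested.

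The adaptors that recruit CCR4-NOT to mRNAs held the largest falls among the roles. Of the 4 members Tob1, Tob2, Zfp36l1 and Zfp36l2, 3 fell and 0 rose, with a median log2 fold change of -0.96. That median stayed between -1.02 and -0.88 under the 18 alternative analyses, and the same count of 3 falls was reached in each. Their summed CPM was 587 ± 3.62 in control and 375 ± 51.5 in OE libraries (SD, n = 3).

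Tob1 (chromosome 11, 94211454 to 94215495, plus strand) encodes an antiproliferative adaptor that links the CNOT7 and CNOT8 nucleases with the poly(A)-binding protein. Its counts were 186, 188 and 190 in control and 58, 101 and 92 in the OE libraries. The 3 controls were nearly equal, and OE replicate 1 was the lowest library. The mean level went from 87.2 ± 1.28 to 34.04 ± 9.14 CPM (SD, n = 3), which is -1.36 as log2 fold change with an SE of 0.17 (adjusted p = 0.000262 by edgeR). No annotated gene overlaps it.

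Tob2, the paralogue with the same adaptor role, did not pass the threshold. It had 125, 131 and 129 counts in control and 97, 163 and 155 in OE libraries, with overlapping ranges (log2 fold change -0.08, SE 0.18, edgeR adjusted p = 0.769). OE replicate 1 was again the lowest library, and without it the value was 0.07.

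Zfp36l1, an AU-rich element binding protein, fell in the OE libraries. Its 895, 847 and 885 counts in control and 589, 767 and 649 in OE libraries did not overlap as CPM (406 ± 7.74 against 272 ± 31.6, SD, n = 3). On the log2 scale this was -0.58 with an SE of 0.11 (adjusted p = 0.00215 by edgeR). The gene lies on chromosome 12 (80107754 to 80113013, minus strand), opposite the noncoding gene Gm26669.

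Zfp36l2, its paralogue, fell further. It had 71, 76 and 75 counts in control and 39, 25 and 35 in OE libraries, every one of the latter below every control. The mean went from 34.3 ± 1.48 to 13.5 ± 3.2 CPM (SD, n = 3), which is -1.35 as log2 fold change with an SE of 0.20 (adjusted p = 0.00061 by edgeR). The gene lies on chromosome 17 (84183931 to 84187947, minus strand) and overlaps an antisense gene. Zfp36, the founding member of the family, had 32, 22 and 26 counts in control and 10, 28 and 37 in OE libraries, which overlap (log2 fold change -0.28, SE 0.37, edgeR adjusted p = 0.605).

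Among the 11 CCR4-NOT subunits, the scaffold Cnot1 and the regulatory subunit Cnot3 fell, 0 rose and 9 did not pass (Cnot4 passed as lower without OE replicate 3, adjusted p = 0.0499). The values of the 11 ran from -0.64 to 0.32 on the log2 scale, 6 above 0 and 5 below, so the subunits did not shift together. Cnot3 (chromosome 7, 3645268 to 3661109, plus strand) had 213, 209 and 186 counts in control and 163, 174 and 110 in OE libraries, with OE replicate 3 the lowest. Its level was 94.0 ± 7.17 CPM in control and 60.3 ± 12 in OE libraries (SD, n = 3), which is -0.64 as log2 fold change with an SE of 0.15 (adjusted p = 0.00811 by edgeR).

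Cnot1, on which the nucleases and the other subunits assemble, lies on chromosome 8 (95719451 to 95807464, minus strand). It had 174, 167 and 150 counts in control and 137, 106 and 137 in OE libraries, which do not overlap as CPM. On the log2 scale this was -0.55 with an SE of 0.15 (adjusted p = 0.0143 by edgeR). The call was lost without control replicate 1 (adjusted p = 0.0677), without control replicate 2 (0.0646), with the GC offset (0.0566) and with the length offset (0.107), within a range of 0.00203 to 0.107 over the 18 alternatives. Cnot1 and Cnot3 both overlap annotated genes on each strand, and how the counting treated strand is not given in the sources used here.

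The catalytic subunits of CCR4-NOT did not pass the threshold, although Cnot7 did with the GC offset. Cnot6 had 261, 268 and 303 counts in control and 381, 368 and 246 in OE libraries, and its paralogue Cnot6l had 221, 221 and 231 against 239, 232 and 241. Cnot7 had 81, 75 and 91 counts in control and 117, 113 and 121 in OE libraries, without overlap as CPM (log2 fold change 0.32, SE 0.14, edgeR adjusted p = 0.111). Its value became 0.60 with the GC offset (adjusted p = 0.0103), within a range of 0.00887 to 0.388 over the 18 alternatives. Its paralogue Cnot8 had 69, 86 and 71 against 78, 102 and 105. The initial deadenylase did not pass either: the nuclease Pan2 had 65, 58 and 44 counts in control and 24, 54 and 74 in OE libraries, and its partner Pan3 had 117 to 128 against 139 to 141. The OE Pan2 values spread on both sides of the controls.

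Of the 7 members that decap mRNA or degrade it from the 5′ end, 1 fell, 0 rose and 6 did not pass. Xrn1, the cytoplasmic 5′ to 3′ exonuclease (chromosome 9, 95954760 to 96057803, plus strand), had 167, 146 and 145 counts in control and 125, 74 and 127 in OE libraries. OE replicate 2 was the lowest library, and no OE library reached the controls. The mean went from 70.8 ± 5.44 to 44.5 ± 13.4 CPM (SD, n = 3), which is -0.67 as log2 fold change with an SE of 0.19 (adjusted p = 0.0206 by edgeR). The call was lost without any 1 of the control libraries 1, 2 and 3 (adjusted p = 0.0901, 0.062 and 0.0563) and with the GC or length offset (0.102 and 0.109), within a range of 0.000259 to 0.109 over the alternatives. Of the overlapping genes of Xrn1, 3 are antisense.

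Xrn2, the nuclear 5′ to 3′ exonuclease, had 461, 420 and 464 counts in control and 477, 497 and 428 in OE libraries (log2 fold change -0.13, SE 0.10, edgeR adjusted p = 0.361). The decapping enzyme Dcp2 and its enhancers Edc3 and Edc4 had between 38.5 and 80 counts in each library. The decapping activators Dcp1a and Dcp1b were thinly counted: Dcp1a had 19, 14 and 26 counts against 12, 18 and 33, and Dcp1b had 7, 9 and 12 against 15, 8 and 17. Changes in these last genes smaller than their spread were not detectable at this depth.

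For the RNA exosome most values lay above 0. Of its 10 members, which are core ring subunits, cap subunits and the nuclease Exosc10, 9 were tested, 1 rose and 0 fell, and the median log2 fold change was 0.31. Of the 9, 7 lay above 0 and 2 below, where the median of all genes tested was 0.04. The split was 6 and 3 with DESeq2's size factors and 8 and 1 with the GC offset. Without a count filter, which let Exosc3 be tested too, it was 6 and 4. The exosome median stayed above 0 in each of the 18 alternatives, from 0.16 without OE replicate 2 to 0.39 without control replicate 2. Summed CPM was 264, 281 and 267 in the control libraries and 301, 313 and 286 in the OE libraries, which do not overlap.

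Exosc4, a ring subunit (chromosome 15, 76327397 to 76330677, plus strand), had 63, 49 and 62 counts in control and 118, 111 and 92 in OE libraries, each of the latter above every control. The mean went from 26.9 ± 3.36 to 43.5 ± 4.46 CPM (SD, n = 3), which is 0.69 as log2 fold change with an SE of 0.16 (adjusted p = 0.00758 by edgeR). It overlaps Oplah on the opposite strand. The other subunits did not pass. Exosc8, Exosc5 and Exosc1 had an unadjusted p below 0.05 and are named after their values were seen. Exosc8 had 69, 51 and 53 counts against 92, 86 and 93 (log2 fold change 0.46, edgeR adjusted p = 0.0577), and it passed with library totals (0.0389) and the GC offset (0.0141, and 0.00779 with the block), within a range of 0.00779 to 0.229. Exosc5 had 50, 46 and 40 against 74, 75 and 60 (0.43, adjusted p = 0.0876). Exosc1, a cap subunit, had 99, 102 and 97 against 84, 104 and 86 (-0.31, adjusted p = 0.118), and it passed as lower with the length offset (0.0417). Exosc6 overlaps Aars on the same strand and had fractional counts in each group, so reads of the 2 genes may be divided between them. Exosc3 was not tested, with 9, 12 and 11 counts in control and 4, 10 and 8 in OE libraries. As CPM its OE values (1.62 to 3.93) lay below its control values (4.15 to 5.63).

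Of the 10 members of the NMD pathway, 1 rose, 1 fell and 8 did not pass, with a median log2 fold change of -0.03. In the main fit the transcript of the kinase was lower and that of its substrate Upf1 higher, the latter a call lost in 12 of the 18 alternatives. Smg1, the kinase (chromosome 7, 118131308 to 118243670, minus strand), had 189, 179 and 155 counts in control and 105, 80 and 109 in OE libraries. Every OE library was far below the lowest control. The mean went from 80.8 ± 8.31 to 40.0 ± 7.63 CPM (SD, n = 3), which is -1.02 as log2 fold change with an SE of 0.16 (adjusted p = 0.00072 by edgeR), and the call was kept in each of the 18 alternatives.

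Upf1, the helicase (chromosome 8, 70331525 to 70353278, minus strand), had 146, 120 and 120 counts in control and 209, 197 and 169 in OE libraries. The ranges do not overlap as CPM, although control replicate 1 (67.3 CPM) came close to OE replicate 3 (71.5 CPM). The mean went from 59.6 ± 6.66 to 77.9 ± 6.62 CPM (SD, n = 3), which is 0.39 as log2 fold change with an SE of 0.13 (adjusted p = 0.0447 by edgeR). This call was lost in 12 of the 18 alternatives: with DESeq2's size factors (adjusted p = 0.0767) or DESeq2's test (0.188), with either other count filter (0.107 and 0.0758), with the GC offset alone or with the replicate number as a block (0.463 and 0.485), and without mitochondrial genes (0.0837). Leaving out control replicate 1, 2 or 3 gave 0.0549, 0.165 and 0.175, and leaving out OE replicate 1 or 2 gave 0.138 and 0.123. The value fell to 0.15 with the GC offset and stayed above 0 in each of the 18 alternatives, where the adjusted p ran from 0.023 to 0.485. Upf1 lies opposite Cers1 and Gdf1.

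Upf2, which bridges UPF1 to the exon junction complex, had 136, 139 and 129 counts in control and 170, 201 and 208 in OE libraries, without overlap as CPM, and did not pass (log2 fold change 0.33, SE 0.13, edgeR adjusted p = 0.0743). It did pass, as higher, in 5 of the 18 alternatives: with library totals (0.0468), the GC offset (0.0112, and 0.0118 with the block), the length offset (0.028) and without OE replicate 1 (0.0331), within a range of 0.0112 to 0.272. It is named after its values were seen. Upf3a and Upf3b, paralogues that bind the exon junction complex, did not pass: Upf3a had 121, 107 and 115 counts against 135, 126 and 101, and Upf3b had 358, 360 and 368 against 382, 377 and 398. The adaptor Smg5 and the nuclease Smg6, which act after UPF1 phosphorylation, and the SMG1 cofactors Smg8 and Smg9 did not pass, with counts from 10 to 69 per library.

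Of the 7 microRNA effectors, 6 were tested, 1 fell and 0 rose, with a median log2 fold change of -0.23. That median turned to 0.08 with the length offset, where the GC offset gave -0.20. Ago3, an Argonaute protein (chromosome 4, 126331704 to 126429556, minus strand), had 46, 37 and 49 counts in control and 31, 35 and 27 in OE libraries. The groups do not overlap as CPM. The mean went from 20.4 ± 2.7 to 12.6 ± 1.17 CPM (SD, n = 3), which is -0.69 as log2 fold change with an SE of 0.21 (adjusted p = 0.0265 by edgeR). The call was lost in 7 of the 18 alternatives, with the length offset (adjusted p = 0.31), the GC offset (0.126, and 0.153 with the block), DESeq2's test (0.0822), and without control replicate 1 (0.0847), control replicate 3 (0.113) or OE replicate 3 (0.0531), within a range of 0.0182 to 0.31. Ago2, the Argonaute that can cleave its targets, had 377, 399 and 428 counts in control and 369, 426 and 383 in OE libraries and did not pass (log2 fold change -0.22, SE 0.11, edgeR adjusted p = 0.139). Ago4 was not tested, with 2 to 11 counts per library, and Ago1, Tnrc6a, Tnrc6b and Tnrc6c did not pass, apart from Tnrc6b without OE replicate 3 (-0.43, adjusted p = 0.0109).

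**Figure D3:**
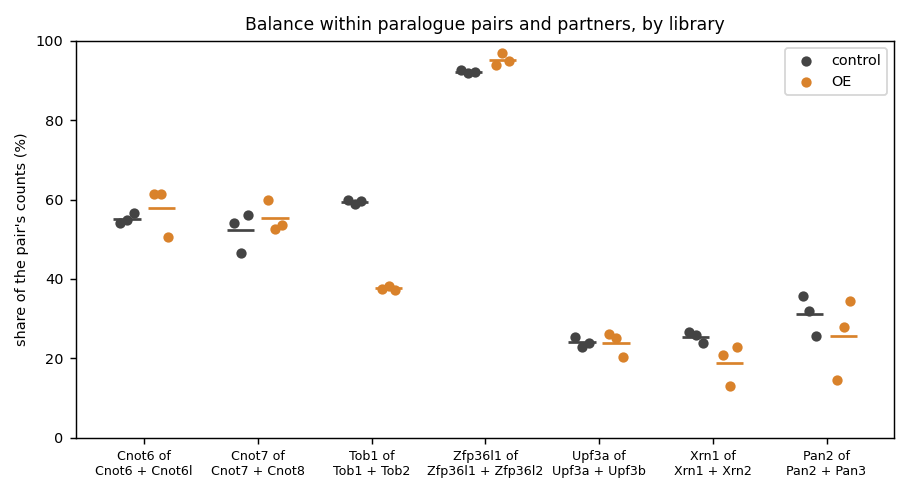
Share of a pair's summed counts that came from its first member (y axis, percent) in each library, with the group mean as a line, for the 7 pairs with at least 30 counts in every library. Tob1 made up 58.9% to 59.8% of the Tob counts in control and 37.2% to 38.3% in OE libraries.

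Counts within a pair of paralogues or partners share a library, so the share of the first member does not depend on scaling. Tob1 held 59.8%, 58.9% and 59.6% of the Tob counts in the control libraries and 37.4%, 38.3% and 37.2% in the OE libraries. The means were 59.4% ± 0.45 and 37.6% ± 0.541 (SD, n = 3), with no overlap, although Tob1 and Tob2 counts themselves differed between the OE libraries. Zfp36l1 held 92.2% ± 0.442 of the Zfp36l counts in control and 95.2% ± 1.55 in OE libraries. Xrn1 held 25.4% ± 1.43 and 18.9% ± 5.23 of the Xrn counts. For these 3 pairs the exact two-sided permutation test gave p = 0.1, the smallest it can give for 3 against 3 libraries (0.233 after Benjamini-Hochberg adjustment over 7 pairs). The other 4 pairs overlapped between groups, with exact permutation p from 0.4 to 0.9: Cnot6 of Cnot6 and Cnot6l (55.2% and 57.8%), Cnot7 of Cnot7 and Cnot8 (52.3% and 55.4%), Upf3a of the Upf3 counts (24% and 23.8%), and Pan2 of Pan2 and Pan3 (31.1% and 25.6%). Dcp1a and Dcp1b had as few as 23 counts together and were given no share.

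Base composition and transcript length moved with the fold changes over all genes: across the genes tested, Spearman's rho with the log2 fold change was 0.369 for GC content and -0.295 for the length of the longest transcript, as a description, since genes are not independent. The 8 members that fell had a median GC content of 45.8% and a median length of 6362 bases, the 2 that rose 56.4% and 3207 bases, and the 39 that did not pass 48.4% and 4209 bases. With the GC offset, Tob1, Zfp36l1, Zfp36l2, Smg1, Cnot3 and Exosc4 kept their calls, and Cnot7, Exosc8 and Upf2 became calls as higher. With the length offset those 6 and Upf1 kept their calls, Upf2 became a call as higher and Exosc1 as lower. Ago3, Cnot1 and Xrn1 were past the threshold with neither offset alone. The 6 that kept their calls with either offset also kept them in each of the 18 alternatives, and no called member changed direction in any. Among the 6, Exosc4 and Cnot3 came close to the threshold, with a highest adjusted p of 0.0498 and 0.0451. The highest was 0.0188 for Zfp36l1, 0.00886 for Smg1, 0.00658 for Zfp36l2 and 0.00371 for Tob1.

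The wider decay pathway was read from 8 lists, which together held 108 genes tested. They were written from general knowledge, but with earlier results of these data known. Of these, 8 rose and 21 fell (29 in all, 26.9% of those tested, beside 29.2% of all genes), with a median log2 fold change of -0.17. Without control replicate 1, 2 or 3, the number that rose was 2, 2 and 3 and the number that fell was 12, 13 and 12; without OE replicate 2, 4 rose, and with the GC offset 12 fell. The main-fit counts of each list below stand beside 16.5% of all genes tested that rose and 12.7% that fell. These shares do not apply to the alternatives. All genes that rose numbered 1765 in the main fit and 1097, 1079 and 1033 without control replicate 1, 2 or 3. Those that fell numbered 1353, and 796, 758 and 715. With DESeq2's test 1059 rose and 1037 fell, with the GC offset 1358 and 1094, and with the length offset 1457 and 1135. Without OE replicate 1 they were 1614 and 1731, and without OE replicate 2 1227 and 1072. For each gene named from these lists, the alternatives that ended its call, other than the replicate block, are given with their adjusted p.

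**Figure D4:**
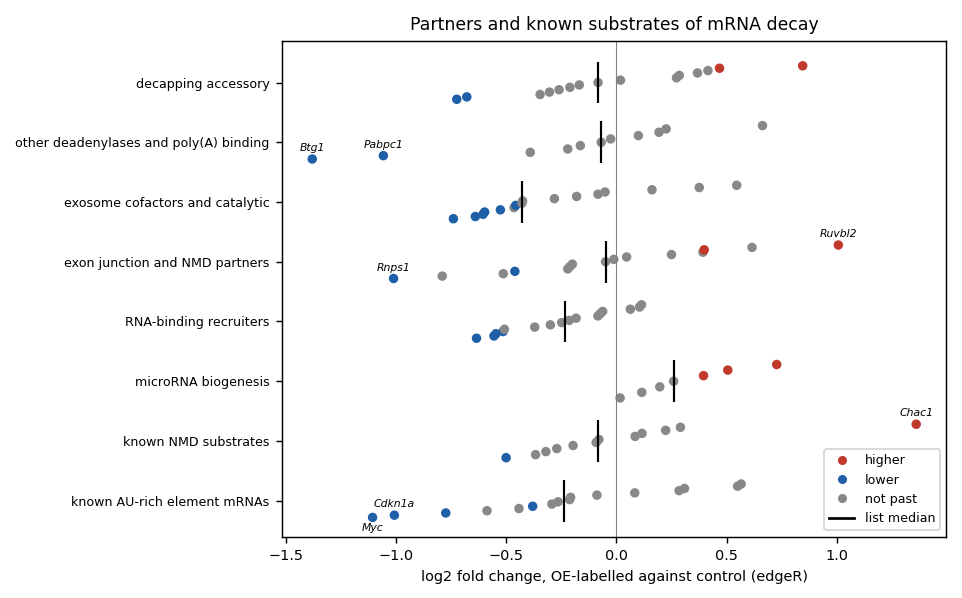
Log2 fold change (x axis, OE against control, edgeR) of each gene tested in the 8 lists of decay partners and known substrates; colours mark genes with adjusted p below 0.05 and the vertical bars are list medians. Btg1 and Pabpc1 lie far to the left, Chac1 and Ruvbl2 far to the right, and the list of exosome cofactors has the lowest median in this fit (-0.43).

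Among 11 other deadenylation and poly(A)-binding genes tested, 2 fell and 0 rose (median -0.07). Btg1, an antiproliferative relative of Tob1 that also binds the CNOT7 and CNOT8 nucleases, had 251, 256 and 254 counts in control and 94, 104 and 134 in OE libraries (log2 fold change -1.38, SE 0.15, edgeR adjusted p = 0.000104). Pabpc1, the main cytoplasmic poly(A)-binding protein, had 10464, 10685 and 11339 counts against 4632, 6954 and 6201 (-1.06, SE 0.13, adjusted p = 0.000177). Both kept their calls in the 18 alternatives, and the groups did not overlap for either. Their paralogues Btg2 and Pabpc4, named after their values were seen, did not pass in the main fit. Their log2 fold changes were 0.19 and 0.23 (edgeR adjusted p = 0.421 and 0.382). Without OE replicate 1 the list held 2 rises and 3 falls.

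Among 16 exosome cofactors and catalytic genes tested, 6 fell and 0 rose, with a median of -0.43, while the median of the exosome members above was 0.31. With the GC offset these medians were -0.257 and 0.23, and the list of RNA-binding recruiters lay lower, at -0.265. Zcchc7, an adaptor of the nuclear TRAMP complex, fell from 157 ± 6.74 to 103 ± 11.2 CPM (log2 fold change -0.61, edgeR adjusted p = 0.00253), and its call was lost with the GC offset (0.135). Ttc37 and Wdr61, subunits of the cytoplasmic SKI complex, fell by 0.64 and 0.46 on the log2 scale (adjusted p = 0.0162 and 0.0122). Without control replicate 1 the adjusted p was 0.0501 for Ttc37 and 0.0634 for Wdr61, and it was 0.0941 for Ttc37 without control replicate 3 and 0.0596 for Wdr61 without control replicate 2. With the GC and length offsets it was 0.0778 and 0.0721 for Ttc37. The number that fell was 1, 2 and 3 without control replicate 1, 2 or 3, 2 with the GC offset, 3 with the length offset and 4 with DESeq2's test. The nucleases Dis3 and Dis3l, named after their values were seen, fell by 0.60 and 0.74 (adjusted p = 0.0214 and 0.0266). Both lost the call without control replicate 1 (0.077 and 0.0722), without control replicate 2 (0.0922 and 0.0882) and without OE replicate 2 (0.0759 and 0.0757), and Dis3l also without control replicate 3 (0.078) and with DESeq2's test (0.11). The GC and length offsets gave 0.12 and 0.0595 for Dis3.

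Among 15 decapping accessory genes tested, 2 rose and 2 fell (median -0.08). No gene rose with DESeq2's test or without control replicate 1 or 2, 1 rose without control replicate 3, without OE replicate 2 or with the length offset, and 2 or 3 fell in each alternative. Gigyf2, a translational repressor that recruits decay factors, went from 164 ± 10.8 to 99.3 ± 10 CPM (log2 fold change -0.72, SE 0.12, edgeR adjusted p = 0.00088). Patl1, which bridges the deadenylation and decapping machineries, went from 50.1 ± 1.19 to 31.3 ± 6.73 CPM (-0.68, SE 0.17, adjusted p = 0.00963). Lsm2, a subunit of the LSM ring, had 28, 28 and 28 counts against 68, 45 and 59 (0.85, SE 0.22, adjusted p = 0.0136). Its call was lost without control replicate 1, 2 or 3 (0.0525, 0.0503 and 0.0548), with DESeq2's test (0.0526) and with the length offset (0.051).

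Among 15 exon junction and NMD partner genes tested, 2 rose and 2 fell (median -0.05). The rises numbered 1 without any 1 of the control libraries, without OE replicate 2 and with the length offset, and the falls 1 without control replicate 2 or 3, without OE replicate 2, with library totals and with the GC offset, and 4 with the length offset. Rnps1, an exon junction component that promotes NMD, had 80, 88 and 87 counts in control and 45, 52 and 47 in OE libraries (log2 fold change -1.01, SE 0.16, edgeR adjusted p = 0.000782). Ruvbl2, an ATPase that associates with SMG1, had 31, 36 and 29 against 75, 66 and 79 (1.01, SE 0.19, adjusted p = 0.00253), and it lies opposite Gys1 and Lhb. Both kept their calls in the 18 alternatives. The other 2 calls did not: Rbm8a, a core component of the exon junction complex, rose by a log2 fold change of 0.40 (adjusted p = 0.015) and lost the call in 5 alternatives, namely without control replicate 1, 2 or 3 (0.0638, 0.0728 and 0.0794), without OE replicate 2 (0.0629) and with the length offset (0.0661). Gspt1, the translation release factor eRF3a, named after its values were seen, fell by 0.46 (adjusted p = 0.035) and lost the call without control replicate 2 or 3 (0.0823 and 0.201), without OE replicate 2 (0.114), with library totals (0.0553) and with the GC offset (0.152).

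Among 12 known NMD substrates tested, 1 rose, 1 fell and 10 did not pass, with a median of -0.09. Chac1, a glutathione-degrading enzyme that is also induced by the stress-response factor ATF4, had 107, 64 and 63 counts in control and 246, 225 and 214 in OE libraries (log2 fold change 1.36, SE 0.18, edgeR adjusted p = 0.000324). Control replicate 1 was the highest control. The falls in this list numbered 0 to 3 over the 18 alternatives, with 0 without any 1 of the control libraries and 3 without OE replicate 1 or with limma-voom. Gadd45b fell by 0.50 (adjusted p = 0.0318) and lost its call without control replicate 1, 2 or 3 (0.081, 0.0781 and 0.12) without OE replicate 2 or 3 (0.0945 and 0.0551) and with DESeq2's test (0.085).

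Among 16 mRNAs known for AU-rich elements, 4 fell, 0 rose and 12 did not pass (median -0.24). The number that fell was 2 without control replicate 1 or 3, and 6 without OE replicate 3 or without mitochondrial genes and CT010467.1, and 2 rose without OE replicate 1. Vegfa, the angiogenic growth factor, went from 330 ± 14.9 to 193 ± 13 CPM (log2 fold change -0.77, SE 0.10, edgeR adjusted p = 0.000324). Cdkn1a, the cell-cycle inhibitor p21, went from 1139 ± 44.8 to 566 ± 137 CPM (-1.01, SE 0.15, adjusted p = 0.000584). Hbegf fell by 0.38 (adjusted p = 0.0159), and not past the threshold without control replicate 1 or 3 (0.0797 and 0.089). Myc, named after its values were seen, had 46, 67 and 54 counts in control and 8, 35 and 45 in OE libraries (-1.11, SE 0.39, adjusted p = 0.0472). OE replicate 1 was the lowest library for Myc, and the call was lost with DESeq2's test (0.21), with library totals (0.062), without control replicate 1, 2 or 3 (0.0806, 0.174 and 0.116) and without OE replicate 2 (0.0814). Without OE replicate 1 the Myc value was -0.715 (adjusted p = 0.0214), and without OE replicate 3 it was -1.58 (0.00827).

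Among 16 other RNA-binding recruiters tested, 4 fell and 0 rose (median -0.23). Tut4, a terminal uridylyl transferase, fell by 0.56 on the log2 scale (edgeR adjusted p = 0.00356), and Hnrnpd, the AU-rich element binding protein AUF1, fell by 0.55 (0.00518). Both lost the call with the GC offset (0.0535 and 0.0883), as did Tut7 (0.0781) and Cpeb4 (0.169), so that 0 genes of the list passed with that offset. Tut7 also lost the call with the length offset (0.0624), without control replicate 3 (0.0631) and without OE replicate 2 (0.0515). Cpeb4 also lost it with the length offset (0.0778) and without OE replicate 2 (0.0696). Without control replicate 1, 2 or 3 the adjusted p for Cpeb4 was 0.0753, 0.0898 and 0.112. In this list the number that fell was 2 with the length offset, without control replicate 3 or without OE replicate 2. Among 7 microRNA biogenesis genes tested, 3 rose and 0 fell (median 0.26), and 0 rose with DESeq2's test or without control replicate 1, 2 or 3. With the length offset, or without OE replicate 1 or 2, 1 rose. The RNA-editing enzyme Adar had 41, 36 and 38 counts in control and 90, 59 and 68 in OE libraries (log2 fold change 0.73, SE 0.21, adjusted p = 0.0193). It lost the call without control replicate 1, 2 or 3 (0.0542, 0.076 and 0.0712) without OE replicate 1 (0.0725), with DESeq2's test (0.0696) and with the GC offset (0.0637). Ran, the GTPase of nuclear transport, and Prkra, a partner of Dicer, rose by log2 fold changes of 0.40 and 0.51 (adjusted p = 0.023 and 0.0424). Without control replicate 1, 2 or 3 the adjusted p was 0.0835, 0.103 and 0.086 for Ran and 0.121, 0.0541 and 0.183 for Prkra, and with DESeq2's test 0.0675 and 0.149. Ran also lost the call without OE replicate 2 (0.137) and with the length offset (0.101). Prkra also lost the call with DESeq2's size factors (0.0622), at least 20 counts in 3 libraries (0.0612) and the length offset (0.195). Without mitochondrial genes and CT010467.1 its adjusted p was 0.0685, and without OE replicate 1 or 2 it was 0.0994 and 0.162. Prkra was past the threshold in 8 of the 18 alternatives.

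Markers of cell types were measured in the same libraries. Of 9 epithelial markers 8 were tested, 4 rose and 1 fell, and their summed level was 4152 to 4389 CPM in control and 5403 to 6127 CPM in OE libraries, with the intestinal factor Cdx1 at 0 counts in all 6. Of 8 fibroblast markers 6, and of 5 endothelial markers 2, were at 0 in all libraries, and no gene of either list had more than 3 counts in a library. Of 7 leukocyte markers 3 were at 0 in all libraries, and the list summed to 41.3 to 51.6 CPM in control and 60.9 to 75.8 CPM in OE libraries, where Csf1r rose by a log2 fold change of 0.68 (edgeR adjusted p = 0.0061). The abundant transcripts mt-Rnr1, mt-Rnr2 and CT010467.1, which are ribosomal RNA genes, summed to 137400 to 139800 CPM in control and 50520 to 63690 CPM in OE libraries. The part of these shifts in the members' values was not tested, except that leaving out mitochondrial genes and CT010467.1 kept 9 of the 10 calls, without Upf1.

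Promoter sequences of 43 members were found in the RefSeq table (GRCm38.p6), and the 250 bases before each start were searched on both strands. The E-box CACGTG, the site of MYC-type factors, was in 3 of 43 members (6.98%) and in 6.02% of 32851 windows of the same length. CTTTGAT, a TCF-type motif of WNT targets, was in 1 of 43 members (2.33%) and in 3.21% of all windows. A member with several starts had several windows and was counted once if any held the sequence. The shares of members and of windows are therefore not in the same unit. None of the 6 lower members with a promoter in the table held either sequence in this window.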

How the data were processed

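Mouse intestinal organoid libraries (3 control, 3 OE) were compared. Per the labels' protocols, RNA was column-extracted and libraries came from a QuantSeq 3′ forward kit. The submitters' processing notes name STAR, HTSeq and mm10/GRCm38, without role or order; handling of strand and shared reads is not given in the sources used here. The authors deposited unnormalized estimated counts for 52249 genes. Of the values above 0, 3.09% (2843) were fractional, and counts were rounded for testing. Of the identifiers, 99.5% were found in GENCODE M21, the source of positions, lengths, GC content and UTRs.

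The fit used edgeR 4.0.16 (R 4.3.3) without covariates: filterByExpr, TMM, quasi-likelihood test, Benjamini-Hochberg adjustment over 10687 genes. CPM are TMM-scaled. On simulated counts with 200 genes changed by 1 log2 unit, it recovered 74.5%, with 7.45% of calls false. In the real libraries 29.2% of genes were called and the median absolute log2 fold change was 0.347, so these rates may not hold there. Alternatives used DESeq2 1.42.0, limma-voom (limma 3.58.1), other scalings and filters, offsets, a replicate block and each library left out. Members and lists were chosen with earlier results of these data known. Named were members past the threshold, members of pairs, and from each list up to 3 past it, taken by smallest p. The text marks genes named after seeing values. Summary counts include 1 member that is not reported here.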

Additional observations from a re-analysis of the deposited data

How the results depend on the processing

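In all, 879 values of members were recomputed over 18 alternatives, of which 773 kept direction and side of the threshold, 28 lost it, 13 gained it and 65 changed sign, the last only among members not past it. The length offset was chosen after the data were seen. The number of members called, 10, was 6 to 11 with 1 library left out, where 15.9% to 32.6% of all genes were called. The number higher, 2, was 1 with DESeq2's size factors, DESeq2's test, no count filter, at least 20 counts in 3 libraries, or without mitochondrial genes and CT010467.1, 4 with library totals, the GC offset, or the block with GC offset, and 1 to 2 with 1 library left out. The number lower, 8, was 5 with the GC offset and 5 to 9 with 1 library left out. The members' median was -0.038 with library totals, -0.136 with the stricter filter, 0.021 with the GC offset (block or no block), -0.146 without mitochondrial genes and CT010467.1, 0.061 with the length offset, and -0.108 to -0.034 with 1 library left out. In the pathway lists, 8 higher became 3 with DESeq2's test, 5 with the length offset and 2 to 10 with 1 library left out, and 21 lower became 12 with the GC offset and 12 to 26 with 1 library left out. All genes called numbered 3118 (56.6% higher), and 2096 with DESeq2's test (50.5% higher). The share higher was 49.9% with DESeq2's size factors, 63.8% with library totals and 47.9% with mitochondrial genes and CT010467.1 removed. The causes were not tested.

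Among members that did not pass, signs changed as follows. The length offset gave 0.123 for Ago2, 0.124 for Cnot6l, 0.03 for Dcp1a and 0.097 for Tnrc6b. The GC offset gave 0.182 for Cnot6l, 0.103 for Upf3b and 0.052 for Xrn2, and 0.181, 0.102 and 0.05 with the block. Pan3 was -0.037 with DESeq2's size factors and test, -0.028 without a filter, -0.04 with the stricter filter and -0.053 without mitochondrial genes. With 1 library left out, the values ran from -0.05 to 0.032 for Pan3, -0.1 to 0.222 for Cnot6, -0.599 to 0.159 for Dcp1a and -0.219 to 0.068 for Tob2. The difference in share ran from -9.85 to 0.0856 for Pan2 of the Pan pair, and from -1.35 to 1.59 percentage points for Upf3a of the Upf3 pair.

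With the replicate number as a block, 10 members were called (2 higher, 8 lower), the median was -0.097 and 3112 genes were called in all. Same-numbered libraries correlated at 0.097, 0.018 and 0.069, beside -0.031 for other numbers. Each gene was centred within its group before correlating, so the value for other numbers is not an independent reference. The labels do not say whether same-numbered libraries were paired, and these correlations cannot decide it. Library series and group cannot be told apart, and changes in members with under 30 counts were limited by depth.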
